A study of Mus musculus with 6 samples.

Results

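Chemokine ligands and their receptors were examined in the pressure-loaded mouse heart, as 53 genes (33 ligands and 20 receptors) of the 18029 genes measured. The genes were chosen by symbol, taking the numbered Ccl, Cxcl, Cx3cl and Xcl ligands and the numbered Ccr, Cxcr, Cx3cr, Xcr and Ackr receptors. The rule used no measured value, but earlier results of these data were known when the genes were chosen. RNA came from hearts of 3 Tmbim1 KO mice and 3 Flox wild type mice, all on a C57BL/6 background, 8 weeks old and studied 2 weeks after aortic banding, a constriction of the aorta that raises the load on the left ventricle (the labels write binding). The way in which Tmbim1 was deleted, and in which cells, is not given in the sources used here, and the 3 wild type mice are labelled as carrying the Flox genotype. All 6 mice were banded, so each value below compares genotypes under pressure load, and unoperated hearts were not analysed here.

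Chemokines are small secreted proteins that steer leukocytes along a concentration gradient, and their receptors are G protein-coupled receptors on the responding cells. CC ligands such as CCL2 and CCL3 chiefly draw monocytes, macrophages and T cells, ELR-type CXC ligands draw neutrophils through CXCR2, and CXCL12 acts through CXCR4 in homing and tissue maintenance. Atypical receptors bind chemokines without G protein signalling and remove or transport them. In the loaded heart, the CCL2 and CCR2 pair is known for the recruitment of blood monocytes.

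Each array gave a log2 signal for every probe set, a group of oligonucleotides that reports 1 transcript, and each gene was represented by its brightest probe set over all 6 arrays. As a guide to background, the 95th percentile of 43 probe sets of olfactory receptor genes, which hearts are taken not to express, was 4.22. By this guide 20 of 33 ligands and 11 of 20 receptors exceeded background in the mean of at least 1 group, and the remaining 13 ligands and 9 receptors are called dim below. Tmbim1 itself had signals of 7.53, 7.49 and 7.56 in knockout hearts, against 8.58, 8.38 and 8.33 in wild type hearts. The cardiomyocyte markers were all above background, as 8 of 8 measured. Knockout replicate 1 stood apart in carrying atrial genes, with Myl7 at 12.86 there and between 3.45 and 3.90 on the other arrays.

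Knockout hearts had higher expression of 3 ligand genes, Ccl3, Ccl4 and Ccl2, and 0 ligands were lower past the threshold (limma, Benjamini-Hochberg adjusted p under 0.05 over 38195 probe sets). Over all genes 0.322% were called higher and 0.227% lower, against 3 of 33 and 0 of 33 ligands. At an unadjusted p under 0.05, 9 ligands were higher and 1 was lower, where 5.19% and 6.33% of all genes were. All 3 knockout arrays lay above all 3 wild type arrays in 11 ligands and below them in 1, where 7.34% and 9.38% of all genes did. The median of the log2 differences, knockout minus wild type, was 0.14 over ligands and -0.00 over all genes. Among receptors 0 of 20 were called in either direction by limma, with 2 higher and 1 lower at an unadjusted p under 0.05, 2 above and 2 below without overlap, a median of -0.05 and a mean of 0.01.

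**Figure D1:**
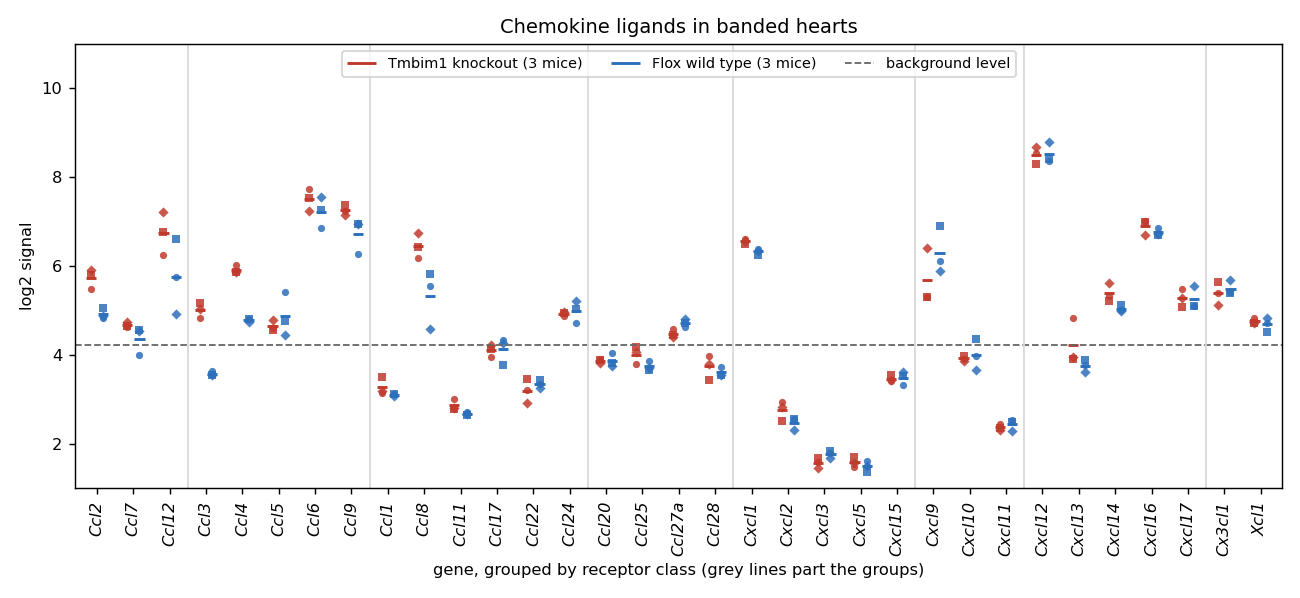
Log2 signal (vertical axis) of each ligand gene (horizontal axis, grouped by receptor class) in 3 Tmbim1 knockout hearts (red) and 3 Flox wild type hearts (blue), with circles, squares and diamonds for replicates 1, 2 and 3, short bars for group means and the dashed line for the background level of 4.22. The red and blue points of Ccl2, Ccl3 and Ccl4 do not overlap, and the wild type points of Ccl3 lie below the dashed line.

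Ccl3 and Ccl4 encode the macrophage inflammatory proteins 1 alpha and 1 beta, CC ligands that activated macrophages secrete, and CCL3 binds CCR1. Ccl3 had signals of 4.82, 5.16 and 5.02 in knockout hearts, against 3.62, 3.54 and 3.55 in wild type hearts. The knockout values all lay above background and the wild type values all below it, so the size of the rise in Ccl3 is uncertain. Its mean was 5.0 ± 0.17 in knockout hearts and 3.57 ± 0.05 in wild type hearts (SD, n = 3 each), a difference of 1.43 (SE 0.11, adjusted p = 0.00098) or 2.69-fold. Ccl4 had signals of 6.02, 5.85 and 5.86 in knockout hearts, against 4.79, 4.81 and 4.74 in wild type hearts. The spread within each genotype was small beside the gap between them, and both groups stood above background. Ccl4 rose by 1.13 (SE 0.10, adjusted p = 0.00124), which is 2.19-fold. In bulk tissue a change in the number of cells that make a transcript and a change in transcript per cell cannot be told apart.

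The related ligands Ccl9, Ccl6 and Ccl5 varied more between mice. Ccl9, a CCR1 ligand of mice made by myeloid cells, had 7.24, 7.36 and 7.13 in knockout hearts, against 6.26, 6.94 and 6.94 in wild type hearts. The groups did not overlap, yet the difference of 0.53 (SE 0.17) did not pass (unadjusted p = 0.0125, adjusted p = 0.286). A second probe set of Ccl9 gave 0.54. Ccl6, a related ligand of rodents, had 7.73, 7.52 and 7.24 in knockout hearts and 6.84, 7.24 and 7.55 in wild type hearts. These values overlapped, with a difference of 0.28 (adjusted p = 0.663). Ccl5, made by T cells among others and known as RANTES, had 4.59, 4.55 and 4.77 in knockout hearts and 5.42, 4.75 and 4.44 in wild type hearts. Beside Ccl3, Ccl4, Ccl6 and Ccl9 it alone had a negative difference, -0.23, and its 95% interval reached from -0.69 to 0.23.

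Among ligands of CCR2, the receptor of inflammatory monocytes, 1 of 3 passed. Ccl2, which encodes monocyte chemoattractant protein 1, had signals of 5.48, 5.79 and 5.91 in knockout hearts, against 4.82, 5.05 and 4.87 in wild type hearts. All knockout hearts exceeded all wild type hearts, and the rise was 0.81 (SE 0.13, adjusted p = 0.0352) or 1.75-fold. The call did not hold when any array other than knockout replicate 1 was left out. The adjusted p then lay between 0.0719 and 0.166, with a difference of 0.72 to 0.88. Without knockout replicate 1 the difference was 0.93 and passed (adjusted p = 0.0282). Ccl12, the second monocyte chemoattractant of mice, had 6.24, 6.76 and 7.20 in knockout hearts and 5.75, 6.59 and 4.91 in wild type hearts. The groups overlapped and wild type replicate 3 was the lowest, with a difference of 0.98 (SE 0.37, adjusted p = 0.354) that was 0.56 without that array and 1.40 without wild type replicate 2. Ccl7 had 4.63, 4.64 and 4.74 in knockout hearts, against 4.0, 4.55 and 4.52 in wild type hearts. The groups did not overlap, yet its difference of 0.32 did not pass (adjusted p = 0.49).

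Of the 6 measured ligands of CCR3, CCR4 and CCR8, 0 passed and 4 were dim. Ccl8, a CCR8 ligand in mice, had 6.17, 6.42 and 6.73 in knockout hearts, against 5.54, 5.82 and 4.57 in wild type hearts. The groups were separate, with wild type replicate 3 again the lowest. The difference was 1.13, the same to 2 decimals as that of Ccl4, but its SE of 0.28 was larger and it did not pass (unadjusted p = 0.00218, adjusted p = 0.15). Without wild type replicate 3 the difference was 0.76. That array also had the lowest summed linear signal of the fibroblast markers. This sum was 12217 to 13782 in knockout hearts and 6221 to 12105 in wild type hearts. Its sum of the macrophage and monocyte markers was the lowest too, at 3199, beside 3616 and 4192 in the other wild type hearts. The part of either sum in Ccl8 and Ccl12 was not tested. The eosinophil attractant Ccl24 had a difference of -0.06, and the dim genes Ccl1 (0.17), Ccl11 (0.19), Ccl17 (-0.02) and Ccl22 (-0.15) did not pass. In Ccl1 and Ccl11 all knockout arrays lay above all wild type arrays.

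The CC ligands that rose lie in gene clusters on 1 chromosome. In the RefSeq gene table (GRCm38.p6, used for gene order only) chromosome 11 holds Ccl2, Ccl7, Ccl11, Ccl12, Ccl8 and Ccl1 in a row, and after other genes Ccl5, Ccl9, Ccl6, Ccl3 and Ccl4 in a second row. These 11 genes include the 3 that rose, 10 had a positive difference, and their median difference was 0.53. Over all genes 0.322% were called higher, and 8907 of 18029 had a positive difference. The other 22 ligands had 0 calls by limma and a median of -0.01, with 10 of 22 positive. At an unadjusted p under 0.05, 3 of these 22 were higher and 1 was lower, where 5.19% and 6.33% of all genes were. The grouping was made after the values were seen and was not tested. Within the second row, Ccl5 and Ccl3 differed in sign, so the neighbours did not all move alike.

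**Figure D2:**
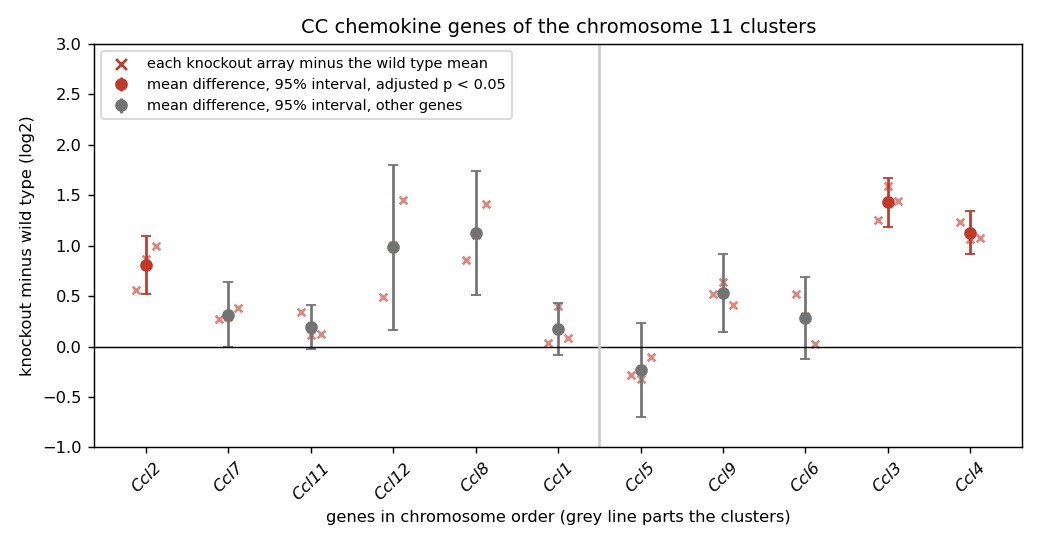
Difference between knockout and wild type means on the log2 scale (vertical axis) for 11 CC ligand genes in chromosome order (horizontal axis), with 95% intervals from limma; crosses give each knockout array minus the wild type mean. Ccl2, Ccl3 and Ccl4 (red) have narrow intervals between 0.53 and 1.67, while those of Ccl12 and Ccl8 are wider.

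Ligands of CXCR2, the neutrophil receptor, did not pass in any of 5 cases and 4 of them were dim. Cxcl1, also known as KC, had 6.60, 6.49 and 6.56 in knockout hearts, against 6.38, 6.24 and 6.33 in wild type hearts. The difference was only 0.23 (SE 0.09, unadjusted p = 0.034, adjusted p = 0.412) although the groups did not overlap. This brightest probe set has the suffix _x_at, by which the maker marks probes that may also bind other transcripts. The dimmer _at probe set of Cxcl1 had 4.81, 4.28 and 5.20 in knockout hearts, against 4.04, 4.04 and 4.04 in wild type hearts, a difference of 0.72 (adjusted p = 0.176), and the _s_at probe set gave 0.47. The wild type values of the _at probe set lay below background, so the size of its difference is uncertain. Cxcl2, a close paralogue induced in macrophages, had 2.94, 2.52 and 2.83 in knockout hearts and 2.56, 2.55 and 2.30 in wild type hearts. All 6 values were below background, with a difference of 0.29 (unadjusted p = 0.0482, adjusted p = 0.467). Cxcl3 (-0.20), Cxcl5 (0.10) and Cxcl15 (-0.02) were dim in both groups.

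Promoter windows of RefSeq (GRCm38.p6), from 250 bases before to 50 bases after the start site, are shown for Ccl3, which rose, and for the paralogues Cxcl1, Cxcl2 and Cxcl3, which were added after their values were seen. Capitals mark matches to GGANTTNCC, a form of the site bound by NF-kB, an inducer of many chemokine genes, on either strand. The windows are chr11:83649329-83649628 on the minus strand, chr5:90890995-90891294, chr5:90903649-90903948 and chr5:90785851-90786150 on the plus strand, each written 5′ to 3′ in the direction of the gene.
Ccl3: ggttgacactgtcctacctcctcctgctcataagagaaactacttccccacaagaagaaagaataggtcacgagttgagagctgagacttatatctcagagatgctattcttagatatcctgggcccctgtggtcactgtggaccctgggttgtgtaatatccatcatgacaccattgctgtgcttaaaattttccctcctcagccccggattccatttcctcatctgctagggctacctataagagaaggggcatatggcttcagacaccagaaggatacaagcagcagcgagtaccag
Cxcl1: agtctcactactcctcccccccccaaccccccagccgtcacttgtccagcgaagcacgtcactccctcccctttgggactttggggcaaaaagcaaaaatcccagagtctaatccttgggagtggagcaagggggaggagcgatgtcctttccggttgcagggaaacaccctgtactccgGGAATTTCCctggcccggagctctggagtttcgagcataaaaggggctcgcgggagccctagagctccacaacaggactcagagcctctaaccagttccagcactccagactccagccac
Cxcl2: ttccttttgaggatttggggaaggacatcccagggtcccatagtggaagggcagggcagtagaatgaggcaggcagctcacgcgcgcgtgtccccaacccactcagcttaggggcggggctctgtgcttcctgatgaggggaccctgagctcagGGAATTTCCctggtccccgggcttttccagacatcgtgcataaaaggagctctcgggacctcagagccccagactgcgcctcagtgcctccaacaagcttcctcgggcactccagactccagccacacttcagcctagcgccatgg
Cxcl3: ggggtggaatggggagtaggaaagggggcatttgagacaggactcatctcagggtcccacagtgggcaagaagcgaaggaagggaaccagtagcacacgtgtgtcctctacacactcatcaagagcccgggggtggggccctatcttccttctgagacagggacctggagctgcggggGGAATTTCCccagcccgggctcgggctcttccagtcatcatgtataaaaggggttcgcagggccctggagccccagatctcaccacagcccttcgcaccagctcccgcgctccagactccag

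The 3 Cxcl windows carry the same 9 letters, whose first base lies 70 bases before the start site in Cxcl1, 96 in Cxcl2 and 72 in Cxcl3. The Ccl3 window holds no run of these letters, which says nothing of sites elsewhere or of other forms. Windows were matched for 40 of the 53 genes. The motif was in 4 of 26 ligand windows (15.4%), 6 of 18 receptor windows (33.3%) and 3.95% of all 32851 windows. A second motif, TGANTCA, a form of the AP-1 site, was in 5 of 26 ligand windows (19.2%), 2 of 18 receptor windows (11.1%) and 7.81% of all windows. The 4 ligands whose windows hold the NF-kB letters are Cxcl1, Cxcl2, Cxcl3 and Cxcl10. Of the 3 ligands that rose, only Ccl3 had a window here, so these shares do not describe Ccl2 and Ccl4.

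The interferon-inducible ligands of CXCR3, which attract activated T and NK cells, were negative in 3 of 3 cases and 0 passed. Among all 18029 genes, 9122 had a negative difference. Cxcl9 had 5.30, 5.29 and 6.40 in knockout hearts, against 6.11, 6.88 and 5.88 in wild type hearts. Knockout replicate 3 lay within the wild type range while the other knockout hearts were below it, and the difference of -0.62 (SE 0.32, adjusted p = 0.545) did not pass. It moved between -0.99 and -0.32 with single arrays left out. Cxcl10, which was dim, had 3.90, 3.98 and 3.86 in knockout hearts and 3.98, 4.35 and 3.66 in wild type hearts. Its 95% interval was -0.43 to 0.27, and its difference ranged from -0.25 to 0.10 with single arrays left out. Cxcl11 was dim as well, at -0.07, and RefSeq classes it as a transcribed pseudogene in the C57BL/6J reference.

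Of the 5 remaining CXC ligands 0 passed. Cxcl12, the CXCR4 ligand of stromal and endothelial cells, had 8.53, 8.29 and 8.66 in knockout hearts and 8.35, 8.41 and 8.78 in wild type hearts. Its difference of -0.02 had a 95% interval from -0.33 to 0.30. Cxcl14, a stromal chemokine, had 5.32, 5.22 and 5.62 in knockout hearts, against 4.99, 5.12 and 4.98 in wild type hearts. The groups were separate at 0.36 (SE 0.12, unadjusted p = 0.014, adjusted p = 0.298). Its dimmer probe set had 4.86, 5.03 and 5.20 in knockout hearts, against 3.53, 4.42 and 3.97 in wild type hearts, a difference of 1.06 (adjusted p = 0.064). The wild type mean of that probe set, 3.97, lay below background, so the size of this difference is uncertain. Cxcl16, a membrane-bound ligand of CXCR6, was at 0.15 and 0.31 by its 2 probe sets, and Cxcl17 at 0.03.

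Cxcl13, the B cell attractant, owed its difference to 1 heart. It had 4.83, 3.90 and 3.94 in knockout hearts, against 3.76, 3.88 and 3.60 in wild type hearts. The high value was that of knockout replicate 1, the array with the atrial genes, and a second probe set read 5.36 there and between 2.46 and 2.63 on the other 5 arrays. The difference of 0.48 (adjusted p = 0.487) was 0.17 without that array. All 5 measured B cell markers were dim. Whether the atrial tissue or other cells carried this signal was not tested.

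Of the homeostatic CC ligands, which guide lymphocytes to lymphoid organs and surfaces, 0 of 4 passed and 3 were dim. Ccl27a, a ligand of CCR10, had 4.58, 4.44 and 4.40 in knockout hearts, against 4.62, 4.71 and 4.81 in wild type hearts. It was the 1 ligand lower without overlap, at -0.24 (SE 0.10, unadjusted p = 0.0377, adjusted p = 0.428), and its single probe set is an _x_at set. The dim genes Ccl20 (-0.00), Ccl25 (0.26) and Ccl28 (0.14) did not pass. The transmembrane ligand Cx3cl1, or fractalkine, had 5.38, 5.63 and 5.11 in knockout hearts and 5.40, 5.38 and 5.67 in wild type hearts, with -0.11 at its brightest probe set and 0.31 at the next. Xcl1, made by T and NK cells, was at 0.07.

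**Figure D3:**
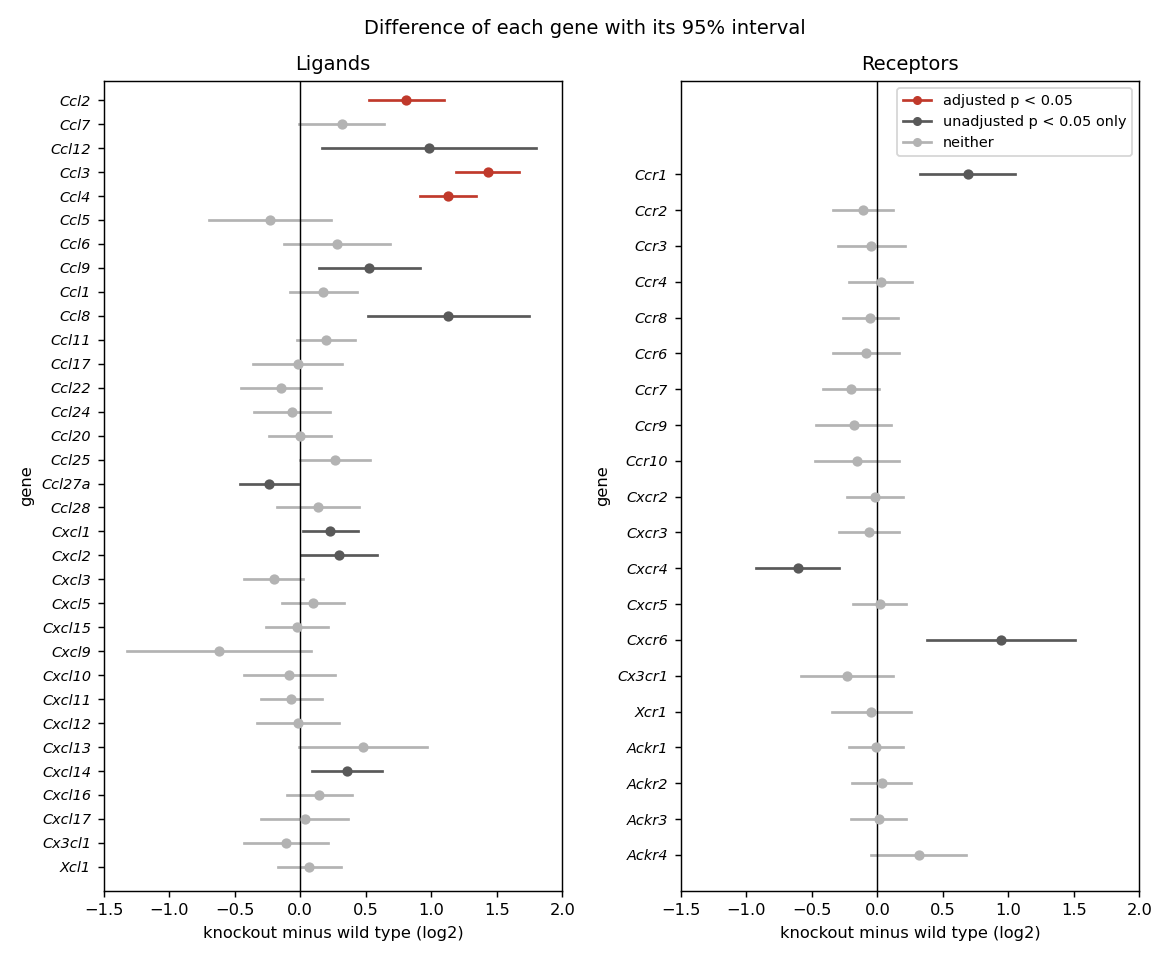
Difference of each ligand (left) and receptor (right), in log2 units and positive where knockout is higher (horizontal axis), with its 95% interval from limma; red marks an adjusted p under 0.05, dark grey an unadjusted p under 0.05 only and light grey neither. Red appears for Ccl2, Ccl3 and Ccl4 and for no receptor, and dark grey for 7 further ligands and 3 receptors.

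Receptors showed no call. At an unadjusted p under 0.05, 2 of 20 were higher and 1 was lower, where 5.19% and 6.33% of all genes were. Ccr1, a receptor of CCL3 on monocytes and neutrophils, had 4.65, 5.04 and 4.43 in knockout hearts, against 3.95, 4.25 and 3.84 in wild type hearts. The groups were separate, with a difference of 0.69 (SE 0.16, unadjusted p = 0.00176, adjusted p = 0.14). The wild type mean of 4.02 lay below the background level, so the size of this difference is uncertain. Its second probe set, far dimmer, gave 0.15. Cxcr6, a receptor for CXCL16 on T and NKT cells, had 4.16, 4.83 and 4.12 in knockout hearts, against 4.0, 3.03 and 3.25 in wild type hearts. The difference was 0.94 (SE 0.25, unadjusted p = 0.00385, adjusted p = 0.182), with 0.53 at the second probe set, and it ranged from 0.71 to 1.23 with single arrays left out. Wild type replicate 1 lay close to the lowest knockout hearts. All 3 wild type values and those of knockout replicates 1 and 3 were below background, which leaves the size uncertain here too.

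Cxcr4, the receptor of CXCL12, pointed the other way. It had 4.37, 4.69 and 4.37 in knockout hearts, against 4.86, 5.34 and 5.04 in wild type hearts. All knockout hearts were below all wild type hearts, with a difference of -0.61 (SE 0.14, 1.53-fold lower, unadjusted p = 0.00161, adjusted p = 0.135), which stayed between -0.72 and -0.48 with single arrays left out. The CCL2 receptor gene Ccr2 had 4.27, 4.27 and 4.37 in knockout hearts and 4.53, 4.26 and 4.45 in wild type hearts. Its difference of -0.11 had a 95% interval from -0.34 to 0.12. The means of 4.30 in knockout and 4.41 in wild type hearts lay close to the background level of 4.22, so the size of this difference is uncertain. A second probe set of Ccr2 had 4.31, 4.13 and 4.35 in knockout hearts and 5.36, 4.44 and 3.27 in wild type hearts. It varied widely between wild type mice. Cx3cr1, the fractalkine receptor of resident macrophages and patrolling monocytes, had 4.96, 4.89 and 4.76 in knockout hearts and 5.22, 5.38 and 4.72 in wild type hearts, a difference of -0.24 (adjusted p = 0.684).

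**Figure D4:**
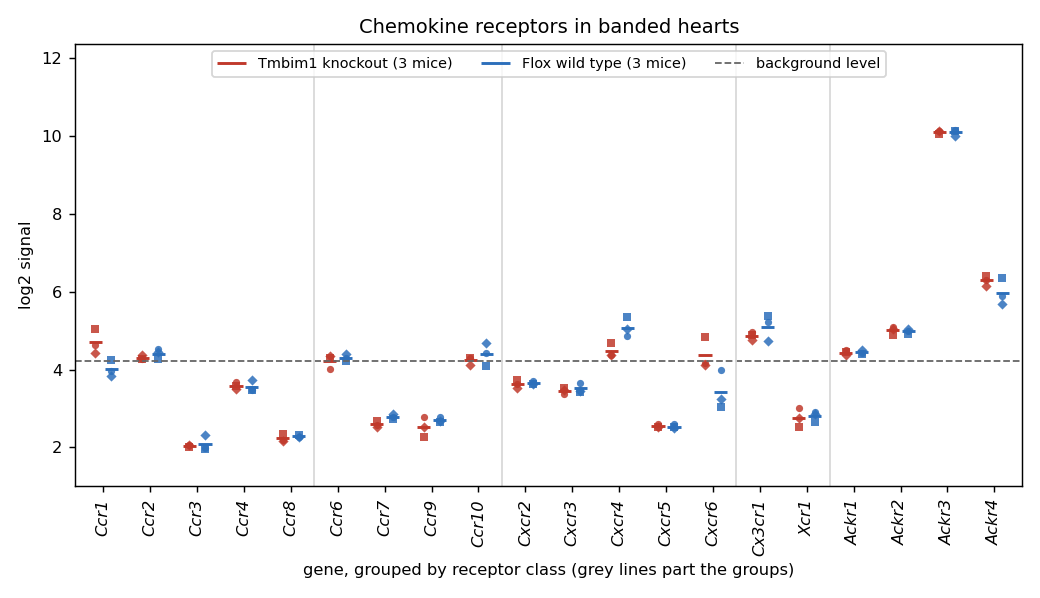
Log2 signal (vertical axis) of each receptor gene (horizontal axis, grouped by class) in 3 Tmbim1 knockout hearts (red) and 3 Flox wild type hearts (blue), drawn with symbols, bars and dashed background line as for the ligands. The groups are separate for Ccr1 and Cxcr6 (knockout higher) and for Cxcr4 and the dim Ccr7 (knockout lower).

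The other receptors lay near 0 or were dim. Cxcr2, the neutrophil receptor, had 3.64, 3.73 and 3.54 in knockout hearts and 3.71, 3.62 and 3.63 in wild type hearts. Cxcr3, the T cell receptor for CXCL9 and CXCL10, had 3.37, 3.53 and 3.46 in knockout hearts and 3.67, 3.43 and 3.46 in wild type hearts. Both were below background on all 6 arrays, with differences of -0.02 and -0.06, and Ccr3, Ccr4, Ccr8, Ccr9, Cxcr5 and Xcr1 were dim as well (-0.18 to 0.02). Ccr7, which guides dendritic cells and T cells to lymph nodes, was dim at -0.20 and without overlap. Ccr6 (-0.09) and Ccr10 (-0.15) did not pass. Cxcr1 was not analysed here.

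The atypical receptors did not change past the threshold in any of 4 cases. Ackr3, a scavenger of CXCL12, had 10.12, 10.07 and 10.14 in knockout hearts and 10.17, 10.13 and 9.99 in wild type hearts. The groups overlapped almost fully, with a difference of 0.01 and a 95% interval from -0.20 to 0.22. Ackr1, the chemokine receptor of venules and red blood cells, had 4.50, 4.44 and 4.37 in knockout hearts and 4.44, 4.40 and 4.51 in wild type hearts, a difference of -0.01. Ackr2, a scavenger of inflammatory CC chemokines, was at 0.03. Ackr4, which binds CCL19, CCL21 and CCL25, had 6.31, 6.42 and 6.15 in knockout hearts and 5.90, 6.36 and 5.68 in wild type hearts, a difference of 0.31 (adjusted p = 0.552).

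Probe sets of the same gene gave differences that varied in size. Of the 20 genes with several probe sets, 13 had all of them on 1 side of 0 and 7 had them on both sides. Of all 85 probe sets of the 53 genes 3 passed, those of Ccl2, Ccl3 and Ccl4, which have 1 probe set each. For Cxcl1, Cxcl13 and Cxcl14 a dimmer probe set gave the larger difference, and for Ccr1 and Cxcr6 the brightest did. The dimmer _at probe sets of Cxcl1, Cxcl13 and Cxcl14 had wild type means below background (4.04, 2.55 and 3.97), so the sizes of their differences are uncertain.

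**Figure D5:**
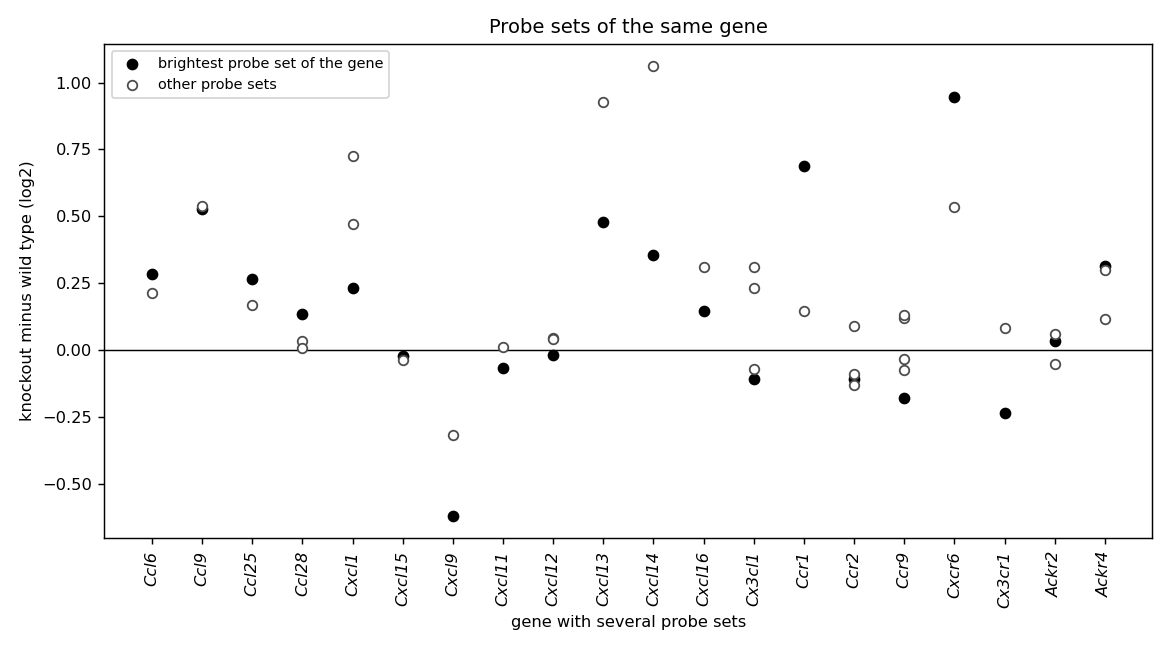
Difference between knockout and wild type on the log2 scale (vertical axis) for every probe set of the 20 genes that have several (horizontal axis), with the brightest probe set of each gene filled and the others open. The open points of Cxcl1, Cxcl13 and Cxcl14 lie above the filled ones, up to 1.06, and those of Ccr1 and Cxcr6 below.

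Genes that carry the signal from chemokine receptors into the cell did not pass. Of 27 measured genes 0 were called by limma and 3 were higher at an unadjusted p under 0.05, against 5.19% of all genes. They were the inhibitory G protein subunits Gnai3 (0.35) and Gnai2 (0.26) and the receptor kinase Grk5 (0.44), and the leukocyte GTPase Rac2 was at 0.20. Of 11 related chemoattractant genes 0 passed, with the complement receptor C5ar1 at 0.40, the chemerin receptor Cmklr1 at 0.38, the cytokine Mif at 0.28 and its receptor Cd74 at -0.72. Of 14 inducers and feedback genes 4 rose and 0 fell, against 0.322% and 0.227% of all genes. Ifnb1, interferon beta, had 5.08, 5.12 and 5.02 in knockout hearts, against 3.29, 3.48 and 3.75 in wild type hearts, and rose by 1.56 (adjusted p = 0.00101). The other risers were Il6 (2.68), Tnf (1.10) and Il1b (1.09), cytokines that induce chemokine genes. The wild type means of Ifnb1 (3.51), Il6 (2.35) and Tnf (4.10) lay below the background level, so the sizes of these 3 rises are uncertain.

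Markers of leukocytes were measured beside the chemokine genes. Macrophage and monocyte markers were above background in 15 of 17 cases, not in Itgam and Timd4, and 0 passed, with 8 of 17 higher at an unadjusted p under 0.05, against 5.19% of all genes. Their summed linear signal was 4352 to 4798 in knockout hearts and 3199 to 4192 in wild type hearts. Neutrophil markers were above background in 5 of 9 cases, not in Mpo, Camp, Mmp8 and Csf3r, and their sum was 186 to 232 in knockout hearts and 148 to 160 in wild type hearts. S100a9 (1.32) and S100a8 (0.95) had the largest differences among them, and those of the other 7 markers lay between -0.03 and 0.16. T and NK cell markers were above background in 3 of 9 cases, with Cd3d, Cd3g and Ncr1 among the dim ones and a sum of 150 to 169 in knockout hearts and 158 to 185 in wild type hearts. Dendritic cell markers exceeded background in 2 of 6 cases, mast cell markers in 0 of 5. The sum of the cardiomyocyte markers was 64016 to 65490 in knockout hearts and 68578 to 71234 in wild type hearts. The heat shock genes, which respond to tissue handling and stress, were above background in 8 of 8 cases. Of them 2 rose, against 0.322% of all genes, and 6 were higher at an unadjusted p under 0.05, against 5.19%. All 3 knockout arrays lay above all 3 wild type arrays in 6, against 7.34% of all genes. Their sum was 14634 to 14981 in knockout hearts and 11767 to 12405 in wild type hearts. The part of these markers in the differences of Ccl2, Ccl3 and Ccl4 was not tested. Without knockout replicate 1, the array with the atrial genes, the difference was 1.52 for Ccl3 (adjusted p = 0.002) and 1.07 for Ccl4 (adjusted p = 0.011).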

How the data were processed

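The table deposited by the authors holds log2 signal, and RMA and limma are named per the submitters' processing notes, without versions or settings in the sources used here. RMA makes the distributions of arrays alike, so an overall shift between groups is not visible. The 13 control sets of the array did not enter. Of the 38195 others, 34325 had 1 gene symbol, 62 had several and 3808 had none in the platform annotation, and 53 of 53 chemokine symbols matched the RefSeq table. The genotypes were compared with limma 3.58.1 in R 4.3.3 (lmFit and eBayes, two-sided, Benjamini-Hochberg adjustment over all 38195 probe sets, threshold 0.05), without covariates. The code was tested on simulated data. Intervals are 95% intervals from the same fit. The labels describe the mice as biological replicates, and 3 arrays in each group limit the precision. No detection calls or scan batches were used here.

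The chemokine genes, the lists and the alternatives were chosen with earlier results of these data known, so no list was tested. Every chemokine gene could be named, with values per array for those with an unadjusted p under 0.05 and for a fixed choice of others, of which some items are not reported here. Values of further genes were added after they were seen. From each pathway list, genes past the threshold and up to 4 with the smallest p were named.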

Additional observations from a re-analysis of the deposited data

How the results depend on the processing

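The 3 ligands called higher were 3 in every alternative fit with all 6 arrays and the same threshold, among them other variance settings of limma, other array scalings, other ways to pick or average probe sets and a filter on dim probe sets at the 40th percentile. Without single arrays 2 or 3 were called, and without both knockout replicate 1 and wild type replicate 3 there were 2. Ccl3 (1.35 to 1.52) and Ccl4 (1.05 to 1.16) passed in 17 of 17 alternatives. Ccl2 (0.72 to 0.93) passed in 11 of 17 and did not pass when knockout replicate 2 (adjusted p = 0.166) or 3 (0.111), wild type replicate 1 (0.0988), 2 (0.0719) or 3 (0.109) was left out, or both arrays named above (0.0877). Requiring an unadjusted p under 0.05 and 1.5-fold called 5 ligands higher, 2 receptors higher and 1 receptor lower. The share of all genes under this rule was not counted, so these counts cannot be read as an excess. Same-numbered mice correlated in their deviations at 0.06, 0.14 and 0.02, so the numbers were not taken as pairs. With the replicate number as a block, 3 ligands and 1 receptor, Ccr1 (adjusted p = 0.0433), were called higher. For this and the other alternative fits the share of all genes called was not counted, so their counts cannot be read as an excess. Choosing the main probe set without _s_at and _x_at sets, an alternative added after seeing the data, left 3 ligands and 0 receptors called. The median difference of ligands lay between 0.09 and 0.15 and that of receptors between -0.07 and -0.01. Of the 53 genes, 21 changed sign in some alternative, and 0 of those were called in any. With 3 mice per genotype the precision is low, and signals near background leave the sizes of differences in dim genes uncertain.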
